A study of Mus musculus with 12 samples.

Results

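Galanin, neurotensin, cholecystokinin and PACAP are neuropeptides of the hypothalamus, and the 9 genes followed here are their precursors and receptors. The precursor genes are Gal (galanin), Nts (neurotensin and neuromedin N), Cck (cholecystokinin) and Adcyap1 (PACAP, the pituitary adenylate cyclase-activating polypeptide). The receptor genes are Galr1, Ntsr1, Ntsr2, Cckbr and Adcyap1r1, which encodes the PAC1 receptor. The genes were chosen by symbol, and all 15 probes carrying 1 of these symbols were taken, out of 56605 probes for 27308 gene symbols on the array. A probe was tested when every array of 1 or more groups had it well above background, which kept 35230 probes and included all 15 probes of the 9 genes. Each gene is described by its brightest probe, and the other probes are given after it.

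Each precursor is cut in dense-core vesicles and released as a short peptide, which for galanin, cholecystokinin and PACAP is also amidated. Galanin acts through receptors that couple mainly to Gi and lower cAMP, whereas the PAC1 receptor couples to Gs and raises it. Ntsr1 and the cholecystokinin B receptor act mainly through Gq and phospholipase C, and Ntsr2 is found in astrocytes as well as in neurons. In the hypothalamus these peptides are known from neurons that control feeding, body temperature, stress responses and sleep, and PACAP also carries light signals from the retina to the circadian clock.

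The arrays measured hypothalamus RNA of 12 male C57BL/6 mice, 1 array per mouse and 3 mice per group. WT were wild-type littermates without swimming, and KO were homozygous for a short CRISPR/Cas9 deletion in Asmt, the enzyme for the last step of melatonin synthesis, also without swimming. After daily free swimming over several weeks, without load, wild-type mice are called exercised WT and Asmt-knockout mice KE; WT and KO alone always mean mice without swimming. The labels give an age of 6 to 7 weeks for every mouse, which the study's methods give as the age at the start of training. The knockout descended from founder mice backcrossed to C57BL/6, a strain that is known to make little melatonin. The Asmt probe was not well above background on any of the 12 arrays, so the genotype labels could not be checked by the targeted gene. The series asks how loss of Asmt and swimming change expression in the hypothalamus.

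The arrays lay on 2 glass slides. Slide 1 held WT 1 to 3 and KO 1 and 2, and slide 2 held KO 3 and all exercised WT and KE mice. Exercised WT and WT mice therefore never shared a slide, and KO 3 was the only unexercised mouse on slide 2. The first principal component over the tested probes held 48.5% of the variance, and all arrays of slide 1 lay on 1 side of it and all arrays of slide 2 on the other. Between slides the ranges of 21.8% of all probes with 12 values did not overlap. Among the 9 genes this was so for 1, Cckbr. Values below are quantile-normalized signal on the log2 scale, so a difference of 1 is a 2-fold change, and values of different probes are not comparable as levels. In whole tissue, fewer cells that make a peptide and less RNA in each of them cannot be told apart.

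**Figure D1:**
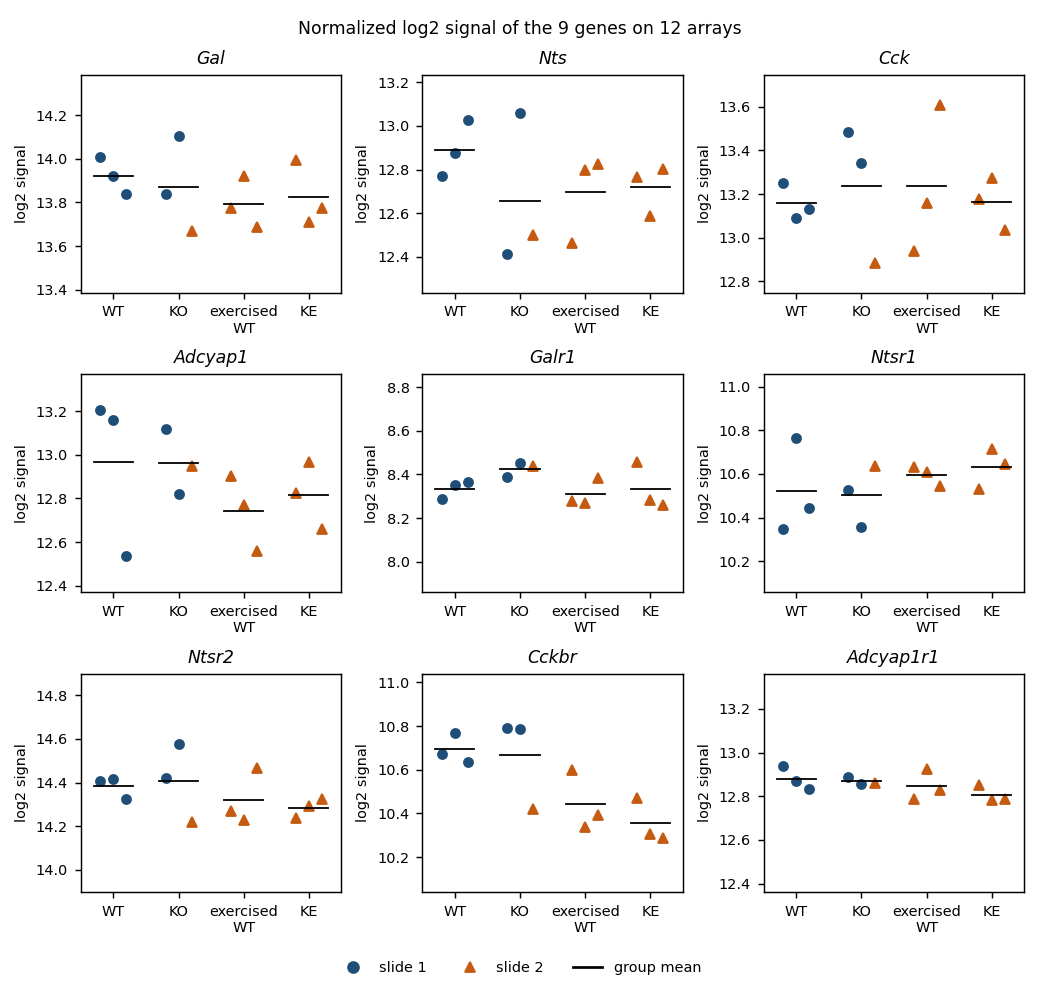
Normalized log2 signal of the brightest probe of each of the 9 genes on each array, by group (WT, KO, exercised WT and KE, 3 mice each), with an axis of the same length in every panel. Points are arrays, their shape and colour give the slide, and bars are group means. Only Cckbr had all slide 2 arrays (10.29 to 10.60) below all slide 1 arrays (10.64 to 10.79). Between slides the ranges of 21.8% of all probes did not overlap.

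Of the peptide genes, Gal varied little. Its probe lies at chr19:3411143-3411202 (mm9). On the log2 scale the signal of Gal was 14.01, 13.92 and 13.84 in WT, 13.84, 14.11 and 13.67 in KO, 13.78, 13.92 and 13.69 in exercised WT, and 14.00, 13.71 and 13.78 in KE. The 4 groups overlapped throughout, with means in the order WT, KO, KE and exercised WT that were 0.05, 0.04 and 0.03 apart. KO differed from WT by -0.05 (SE 0.12, 95% interval -0.32 to 0.21, limma adjusted p = 0.930), exercised WT from WT by -0.13 (SE 0.12, -0.39 to 0.13), and KE from KO by -0.04 (SE 0.12, -0.31 to 0.22).

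Nts, at chr10:101944967-101945026 (mm9), had its lowest group mean in KO and its highest in WT. Nts signal was 12.77, 12.87 and 13.03 in WT, 12.41, 13.06 and 12.50 in KO, 12.46, 12.80 and 12.83 in exercised WT, and 12.76, 12.59 and 12.80 in KE. KO mice held both the lowest and the highest value of the 12, and the SD within KO (0.35, n = 3) was larger than the difference of KO from WT, which was -0.23 (SE 0.17, 95% interval -0.60 to 0.14, adjusted p = 0.846). Without KO 2, the highest mouse, that difference was -0.43 (adjusted p = 0.570, the lowest over its alternatives, which reached 0.9999). With swimming, Nts differed by -0.19 (SE 0.17) in wild-type and by 0.06 (SE 0.17) in knockout mice. The interaction of swimming with genotype was 0.25 (SE 0.23, 95% interval -0.27 to 0.78, adjusted p = 0.831), and 0.46 without KO 2 (adjusted p = 0.610, the lowest over its alternatives, which reached 0.959).

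Cck, at chr9:121398943-121399002 (mm9), had the widest spread of the 9 brightest probes, 0.72 over the 12 arrays. The log2 signal of Cck was 13.25, 13.09 and 13.13 in WT, 13.48, 13.34 and 12.89 in KO, 12.94, 13.16 and 13.61 in exercised WT, and 13.18, 13.27 and 13.03 in KE. Group means were close, at 13.24 in KO and in exercised WT and 13.16 in KE and in WT. The lowest mouse was KO 3 and the highest exercised WT 3, while KO 1 and KO 2 were above all mice but exercised WT 3, and all groups overlapped. KO differed from WT by 0.08 (SE 0.18, 95% interval -0.33 to 0.49, adjusted p = 0.931) and exercised WT from WT by 0.08 (SE 0.18, adjusted p = 0.807). With the slide as a block these became 0.26 (SE 0.17, adjusted p = 0.970) and 0.60 (SE 0.27, 95% interval -0.01 to 1.22, adjusted p = 0.813). The second of these rests on KO 3, which was 0.53 below the mean of KO 1 and KO 2 and is the only mouse that links the slides within a group.

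Adcyap1 had the highest means in WT and KO (12.97 and 12.96) and lower ones in KE and exercised WT (12.82 and 12.74). Its probe lies at chr17:93604702-93604761 (mm9). Adcyap1 signal was 13.20, 13.16 and 12.53 in WT, 13.12, 12.82 and 12.95 in KO, 12.90, 12.77 and 12.56 in exercised WT, and 12.83, 12.97 and 12.66 in KE. WT held the 2 highest mice and the lowest mouse, WT 3, and the groups overlapped. Exercised WT differed from WT by -0.22 (SE 0.17, 95% interval -0.61 to 0.17, adjusted p = 0.428) and KE from KO by -0.15 (SE 0.17, -0.54 to 0.24). Without WT 3 the difference of exercised WT from WT was -0.44 (adjusted p = 0.209, the lowest over its alternatives, which reached 0.919). A second Adcyap1 probe, which the array annotation assigns to a predicted transcript, gave -0.16 and -0.15 for the same differences.

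Among the receptors, Galr1 was highest in KO, where its 3 values did not overlap with WT. Galr1 signal on the log2 scale was 8.29, 8.35 and 8.36 in WT, 8.39, 8.45 and 8.44 in KO, 8.28, 8.27 and 8.38 in exercised WT, and 8.46, 8.28 and 8.26 in KE. The difference of KO from WT was 0.09 (SE 0.06, 95% interval -0.05 to 0.23, adjusted p = 0.846), a fold of 1.07. Ranges of 8.63% of all probes did not overlap between KO and WT, against 1 of the 9 genes. A second Galr1 probe was 0.11 higher in KO than in WT (SE 0.07), with overlapping groups.

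On the second Galr1 probe, KE lay below KO without overlap, beside 21.5% of all probes whose ranges did not overlap between these groups. Its values were 6.89, 6.80 and 6.70 in WT, 6.98, 6.88 and 6.86 in KO, 6.83, 6.68 and 6.73 in exercised WT, and 6.66, 6.58 and 6.75 in KE. KE differed from KO by -0.24 (SE 0.07, 95% interval -0.40 to -0.08, adjusted p = 0.157), by -0.20 with the slide as a block, and by -0.26 without KO 3, where the adjusted p of this Galr1 probe was 0.0396, beside 24.4% of all probes under 0.05 and the lowest over its alternatives (highest 0.601). The brighter Galr1 probe gave -0.09 (SE 0.06, -0.24 to 0.05, adjusted p = 0.417), with the same sign and an overlapping interval. The difference between the probes was not tested.

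Both neurotensin receptors overlapped between all groups. The log2 signal of Ntsr1 (chr2:180279625-180279684, mm9) was 10.35, 10.76 and 10.45 in WT, 10.53, 10.36 and 10.64 in KO, 10.63, 10.61 and 10.55 in exercised WT, and 10.53, 10.71 and 10.65 in KE. Means fell in the order KE (10.63), exercised WT (10.59), WT (10.52) and KO (10.51), and the 6 exercised mice sat within the range of the WT mice. Ntsr1 differed by 0.08 (SE 0.11, 95% interval -0.17 to 0.32) between exercised WT and WT and by 0.12 (SE 0.11, -0.12 to 0.37) between KE and KO. With the slide as a block both differences turned negative, -0.12 (SE 0.19) and -0.01 (SE 0.15). The second, dimmer Ntsr1 probe (chr2:180278862-180278921, mm9) ranged from 7.07 to 7.44, with its lowest and highest values both in KE. It gave -0.02 (SE 0.09) and 0.0001 (SE 0.09) for the same comparisons, and KO against WT was 0.10 (SE 0.09) on it beside -0.01 (SE 0.11) on the brightest probe.

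Ntsr2 signal (chr12:16666797-16666856, mm9) was 14.41, 14.42 and 14.32 in WT, 14.42, 14.58 and 14.22 in KO, 14.27, 14.23 and 14.47 in exercised WT, and 14.24, 14.29 and 14.33 in KE. Means fell in the order KO, WT, exercised WT and KE. KO 2 was the highest and KO 3 the lowest of the 12, and KO differed from WT by 0.02 (SE 0.09, 95% interval -0.19 to 0.23). The differences with swimming were -0.06 (SE 0.09) in wild-type and -0.12 (SE 0.09) in knockout mice. Both had the opposite sign with the slide as a block, 0.22 (SE 0.13) and 0.07 (SE 0.10).

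Cckbr, the main brain receptor for cholecystokinin, had lower means in exercised mice of both genotypes (10.44 ± 0.14 in exercised WT and 10.35 ± 0.10 in KE, SD, n = 3) than in WT (10.69 ± 0.07) and KO (10.67 ± 0.21), and the unexercised mouse on the slide of the exercised mice was also low. No difference of Cckbr passed the adjusted test over all 12 arrays. The log2 signal of Cckbr (chr7:112584581-112584640, mm9) was 10.67, 10.77 and 10.64 in WT, 10.79, 10.79 and 10.42 in KO, 10.60, 10.34 and 10.39 in exercised WT, and 10.47, 10.30 and 10.29 in KE. KO 3 was 0.37 below the mean of KO 1 and KO 2 and lay within the range of the exercised mice. The exercised WT and KE ranges did not overlap with that of WT (beside 37.6% and 44.1% of all probes), and they overlapped with that of KO through KO 3.

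Without a slide term, Cckbr differed by -0.25 between exercised WT and WT (SE 0.11, 95% interval -0.50 to -0.0041, adjusted p = 0.188), by -0.31 between KE and KO (SE 0.11, -0.56 to -0.07, adjusted p = 0.180) and by -0.34 between KE and WT (SE 0.11, -0.59 to -0.09, adjusted p = 0.0843). With the slide as a block, the same differences in Cckbr were 0.12 (SE 0.14, -0.21 to 0.44), -0.07 (SE 0.11, -0.32 to 0.19) and 0.03 (SE 0.14, -0.30 to 0.35). Without KO 3, the KE to KO difference was -0.44 (adjusted p = 0.00894, where 24.4% of all probes had an adjusted p under 0.05) and the KE to WT difference had an adjusted p of 0.0164 (beside 23.2%), but slide and swimming then could not be told apart. Over all alternatives run, the adjusted p of Cckbr ranged from 0.00894 to 0.926 between KE and KO and from 0.0164 to 0.9999 between KE and WT. A fit on KE and WT alone, which lie on different slides, gave an adjusted p of 0.0306 for Cckbr, beside 17.6% of all probes under 0.05. Between exercised WT and KE, which shared slide 2, Cckbr differed by -0.09 (SE 0.11, -0.34 to 0.16, adjusted p = 0.911).

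The second Cckbr probe, at chr7:112584374-112584433 (mm9), followed the brightest in part. KE lay 0.24 below KO on it without overlap (SE 0.10, adjusted p = 0.203), beside 21.5% of all probes without overlap between KE and KO. Exercised WT lay 0.09 below WT on it (SE 0.10), with exercised WT 1 (9.80) above 2 of the 3 WT mice (9.74, 9.89 and 9.60). The third, dim Cckbr probe was well above background on 10 of 12 arrays and had an SD within groups of 0.36.

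**Figure D2:**
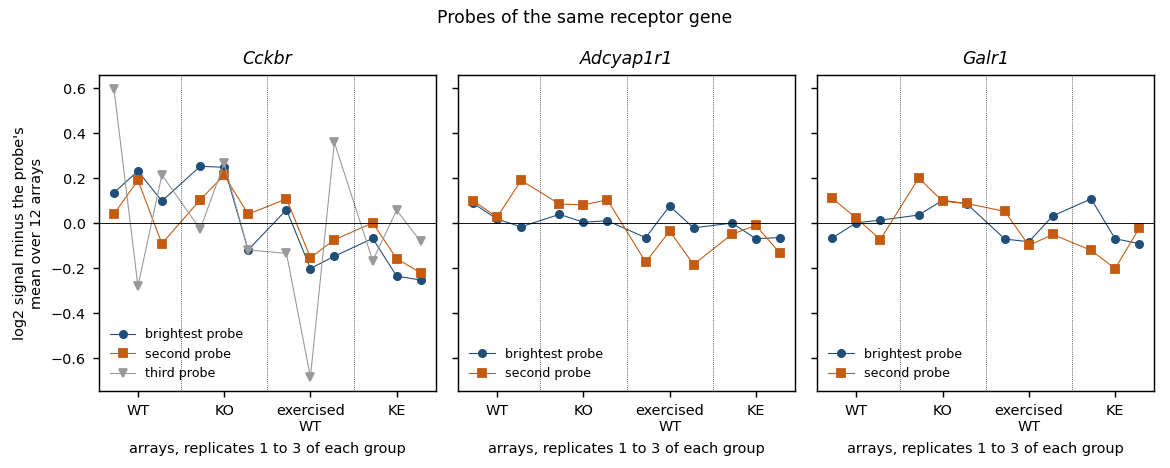
Log2 signal of each probe of Cckbr, Adcyap1r1 and Galr1 minus that probe's own mean over the 12 arrays, for replicates 1 to 3 of WT, KO, exercised WT and KE. Lines join the arrays of 1 probe for reading only. The second Adcyap1r1 probe ranged from 8.30 to 8.47 in the exercised mice and from 8.51 to 8.68 in the others. Ranges of 37.6% of all probes did not overlap between exercised WT and WT, and of 21.5% between KE and KO.

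Adcyap1r1, the receptor for PACAP, had the narrowest spread of the 9 brightest probes, 0.16 over the 12 arrays. On this probe (chr6:55450829-55450888, mm9) the log2 signal of Adcyap1r1 was 12.94, 12.87 and 12.83 in WT, 12.89, 12.85 and 12.86 in KO, 12.79, 12.93 and 12.83 in exercised WT, and 12.85, 12.78 and 12.79 in KE. KE lay just below KO without overlap (beside 21.5% of all probes), by 0.06 in the mean, and exercised WT overlapped with WT. Neither difference passed the test (KE against KO -0.06, SE 0.05, 95% interval -0.18 to 0.06, adjusted p = 0.518, and exercised WT against WT -0.03, SE 0.05, adjusted p = 0.717).

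A second Adcyap1r1 probe, at chr6:55448171-55448230 (mm9), was named after its values were seen. Its values were 8.58, 8.51 and 8.68 in WT, 8.57, 8.57 and 8.59 in KO, 8.31, 8.45 and 8.30 in exercised WT, and 8.44, 8.47 and 8.35 in KE. On it exercised WT lay below WT without overlap, and KE lay below KO without overlap. Ranges of 37.6% of all probes did not overlap between exercised WT and WT, and of 21.5% between KE and KO. The cause of these differences was not tested. On this Adcyap1r1 probe exercised WT differed from WT by -0.24 (SE 0.06, 95% interval -0.38 to -0.10, adjusted p = 0.0936) and KE from KO by -0.15 (SE 0.06, -0.29 to -0.01, adjusted p = 0.210). With the slide as a block they were -0.26 (SE 0.11, -0.51 to -0.0028, adjusted p = 0.803) and -0.17 (SE 0.09, -0.37 to 0.03). The exercised WT to WT difference kept its sign in all 23 alternatives run, with adjusted p between 0.0316 (without KO 3, where 18% of all probes were under 0.05) and 0.803. The array annotation assigns both probes to the same transcript, and their difference in response was not tested.

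No gene had an adjusted p under 0.05 in limma in any comparison, where 0% of all probes were called, or 0.0199% (7 probes) between KE and KO. At an unadjusted p of at most 0.05, 0 of 9 genes were called between KO and WT, beside 5.47% of all probes, and 1 of 9 (Cckbr) between exercised WT and WT, beside 25.9%. Cckbr was also the 1 gene called between KE and KO, beside 21.1% of all probes, and between KE and WT, beside 30.4%. Between KE and exercised WT 0 of 9 were called, beside 6.71%, and for the interaction 0 of 9, beside 7.76%. When each gene on the array was likewise taken by its brightest probe (18266 genes), the shares called were 4.46% for KO against WT, 24.5% for exercised WT against WT, 19.8% for KE against KO and 28.5% for KE against WT. Counted over all 15 probes, 4 were called between KE and KO (26.7%, against 21.1% of all probes), 2 of Cckbr and the second probes of Galr1 and Adcyap1r1. Between exercised WT and WT, and between KE and WT, 2 of 15 were called (13.3%), the brightest of Cckbr and the second of Adcyap1r1, and 0 in the other comparisons. The largest difference was the -0.34 of Cckbr, so none of the 9 genes reached a 2-fold change.

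With the slide as a block 0 of 9 genes were called in every comparison, and of the 15 probes 1, the second of Adcyap1r1, between exercised WT and WT. The shares over all probes were then 5.48% for KO against WT, 9.06% for KE against KO, 6.17% for exercised WT against WT, 10.3% for KE against exercised WT, 4.91% for KE against WT and 10.9% for the interaction. Ranges without overlap were found for 1 of 9 genes between KE and KO (Adcyap1r1, beside 21.5% of all probes), for 1 between exercised WT and WT (Cckbr, beside 37.6%), for 1 between KE and WT (Cckbr, beside 44.1%) and for 0 between KE and exercised WT (beside 19.6%). Over the 15 probes the counts were 1 for KO against WT, 4 for KE against KO, 2 for exercised WT against WT, 2 for KE against WT and 0 for KE against exercised WT. In the order of group means of each gene, neighbouring groups overlapped except KO and WT for Galr1. Several of these comparisons share a group, so they are not independent of each other.

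The range of change that the arrays left possible was narrow without a slide term and larger with it. Between KO and WT no 95% interval of the 9 genes reached beyond 1.52-fold, nor beyond 1.56-fold with the slide as a block. Between KE and exercised WT, which share a slide, none reached beyond 1.39-fold. For exercised WT against WT, where no slide is shared, the widest interval reached 1.53-fold without and 2.33-fold with the slide as a block, and the latter was that of Cck.

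**Figure D3:**
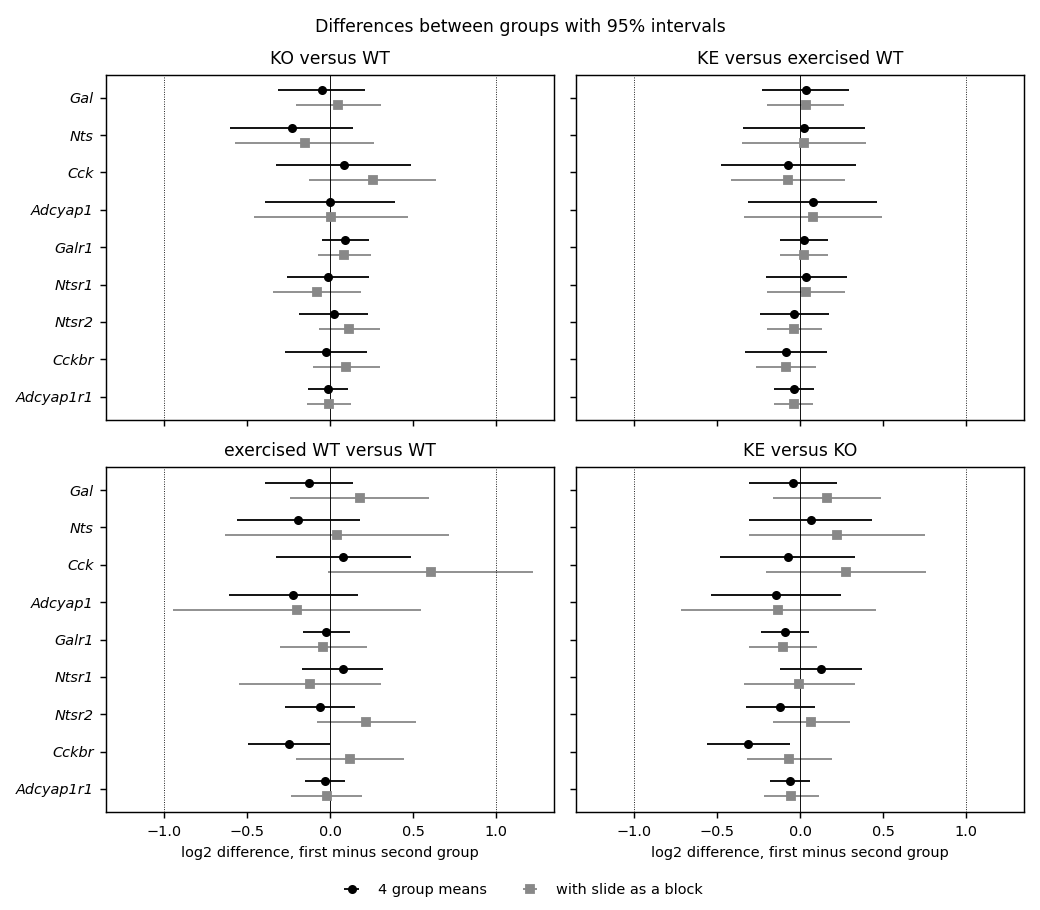
Log2 difference between groups (first minus second) with its 95% interval for the brightest probe of each gene, from the fit of 4 group means (black) and with the slide as a block (grey); dotted lines mark 2-fold changes. Cckbr was at -0.25 and -0.31 in the swimming comparisons without the slide term and at 0.12 and -0.07 with it.

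On the brightest probes, spread within groups was larger for each of the 4 peptide genes than for any of the 5 receptors, by little for Gal (0.152) against Cckbr (0.141). The third, dim Cckbr probe had a larger SD (0.36) than any peptide gene. KO mice lay on 2 slides, so the spread within KO includes any difference between slides. The SD within groups was 0.24 for Cck, 0.23 for Adcyap1, 0.22 for Nts and 0.15 for Gal, and it lay between 0.05 (Adcyap1r1) and 0.14 (Cckbr) for the receptors. Over all tested probes the median was 0.14, and Cck, Adcyap1 and Nts were above 77.1%, 75.2% and 72.8% of probes. Gal was above 55.4%.

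For each peptide gene the 3 gene symbols with the highest Pearson r over the 12 arrays are given as a description. They were Moxd1 (0.95), Cadps2 (0.92) and Reln (0.91) for Nts, where Cadps2 encodes a protein that primes dense-core vesicles and Reln encodes reelin. For Adcyap1 they were Slc18a2 (0.93), the vesicular monoamine transporter, Calca (0.91), the gene of calcitonin and CGRP, and Wif1 (0.90), an inhibitor of Wnt signalling. For Cck they were Rgs14 (0.91), Slc35g3 (0.89) and Kctd1 (0.87), and for Gal Gm1965 (0.88), Gm33789 (0.88) and Rrm2 (0.87), a subunit of ribonucleotide reductase. After each slide's mean was taken away r remained between 0.82 and 0.95 for these 12. These genes were picked as the highest among all tested gene symbols, so a high r is what the choice gives, and the arrays share their slides and their normalization.

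**Figure D4:**
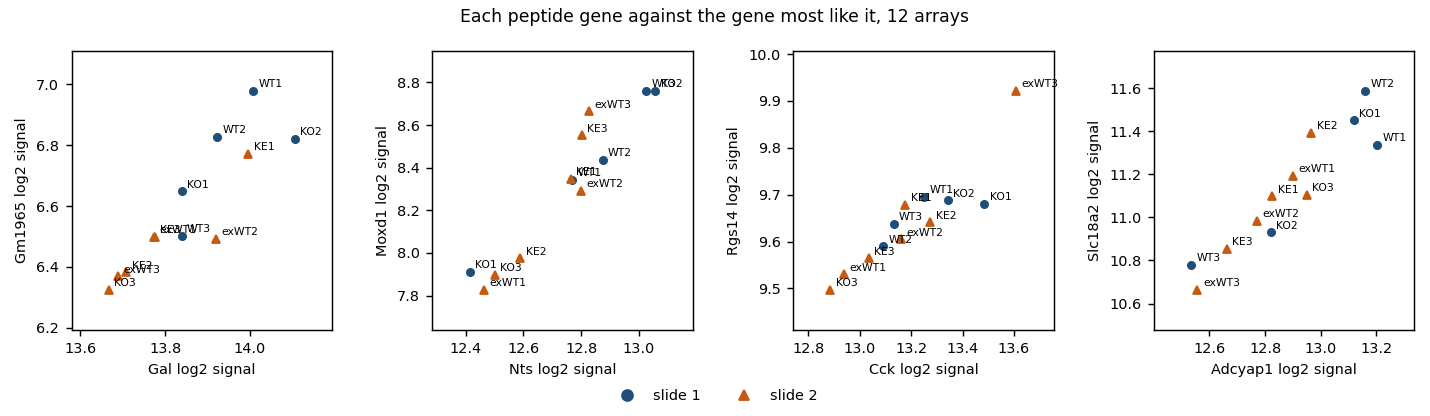
Log2 signal of each peptide gene (horizontal) against that of the gene most like it over the 12 arrays (vertical), 1 point per mouse, with shape and colour giving the slide and exWT standing for exercised WT. For Adcyap1 the lowest mice, WT 3 and exercised WT 3, were also the lowest for Slc18a2 (10.78 and 10.66), and for Nts the highest mice, KO 2 and WT 3, were the highest for Moxd1 (both 8.76).

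Some of the mice at the extremes of the peptide genes also stood apart in markers of neighbouring tissue or blood, and others did not. The mean log2 signal of the 8 tested of 9 markers of cortex and hippocampus was highest in exercised WT 3 (8.47) and WT 3 (8.28), the mice with the lowest Adcyap1. It ranged from 7.98 to 8.28 in WT, 7.90 to 8.07 in KO, 8.22 to 8.47 in exercised WT and 8.05 to 8.19 in KE. Exercised WT 3, the mouse with the highest Cck, had the highest mean of 9 striatal markers (11.32), against 10.27 to 10.73 over the other 11 mice. All 11 hypothalamic markers were tested, and their mean ranged from 12.26 to 12.71, and WT 3 (12.26) and exercised WT 3 (12.28) were its lowest mice. KO 3, the mouse with the lowest Cck and Gal, was within the range of the others for cortex and hippocampus (8.07) and striatum (10.37) and had the highest mean of hypothalamic markers (12.71). Of the hypothalamic markers, Sim1 was 7.23 in KO 3, 6.21 to 6.77 on the other arrays of slide 2 and 4.10 to 5.08 on slide 1. Sim1 was well above background on 9 of 12 arrays. Besides Sim1, KO 3 was the highest mouse only for Pmch (15.28). For Nts, the lowest mouse, KO 1, had the lowest mean of the 7 choroid plexus markers (8.61) and of the 3 tested of 4 blood markers (12.43), and the highest mouse, KO 2, had the highest of blood markers (13.72) and a choroid plexus mean of 9.58, below that of exercised WT 2 (9.76). The choroid plexus markers of KO 1 did not move together. Ttr was 5.53 in KO 1, against 7.15 to 10.79 in the other mice, and Otx2 was also lowest there (8.06). Folr1 in KO 1 (7.87) was above all mice but KO 2 (7.96). The part of these markers in the values of the peptide genes was not tested.

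Genes that act with these peptides are given by lists, and no tested gene of any list had an adjusted p under 0.05 in any comparison. Among family relatives (7 of 9 tested), Sort1, which encodes sortilin and binds neurotensin, was 0.20 higher in exercised WT than in WT (SE 0.08, adjusted p = 0.150), and -0.07 with the slide as a block. Vipr2, a receptor for PACAP and VIP, was 0.25 higher in KO than in WT (SE 0.13, adjusted p = 0.846) and 0.29 with the block. The list's median was 0.10 for exercised WT against WT and 0.04 for KO against WT, beside -0.04 and -0.01 over all probes.

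Of 14 genes of peptide processing and storage, 1 was higher and 3 were lower in exercised WT than in WT at an unadjusted p of at most 0.05, beside 25.9% of all probes called in that comparison, with a median of -0.03. Pam, the amidating enzyme, was at -0.34 (SE 0.12, adjusted p = 0.124) and Pcsk2, a prohormone convertase, at -0.22 (SE 0.08, adjusted p = 0.125), and with the slide as a block they were at 0.04 and -0.10. Vgf, a granule protein, was 0.48 higher in KE than in KO (SE 0.13, adjusted p = 0.147) and 0.17 with the block.

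Of 7 genes of peptide breakdown, 1 was higher and 3 were lower in exercised WT than in WT by the same count, again beside 25.9% of all probes. Mme, which encodes neprilysin, was 0.70 higher (SE 0.21, adjusted p = 0.102) and -0.21 with the slide as a block. Prep, prolyl endopeptidase, was at -0.19 (SE 0.06, adjusted p = 0.116) and at -0.26 with the block. The list's median was -0.16 without and -0.21 with the block.

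Of 17 genes of receptor signalling, 3 were higher and 2 lower in exercised WT than in WT at an unadjusted p of at most 0.05 (beside 25.9% of all probes), and 2 were higher in KO than in WT, Plcb4 and Creb1 (beside 5.47%). Plcb4, a phospholipase C downstream of Gq, was 0.24 higher in KO than in WT (SE 0.10, adjusted p = 0.846) and 0.31 higher in exercised WT than in WT (SE 0.10, adjusted p = 0.109), and 0.14 and 0.01 with the block. Creb1, the cAMP response element-binding protein, was 0.21 and 0.28 higher in the same comparisons, and 0.14 and 0.05 with the block.

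Of 15 other hypothalamic peptide genes, 1 (Avp) was lower in exercised WT than in WT at an unadjusted p of at most 0.05 (beside 25.9% of all probes) and 1 (Sst) was higher in KE than in KO (beside 21.1%). Agrp, an appetite-stimulating peptide, was 0.44 higher in KO than in WT (SE 0.21, unadjusted p = 0.0654, adjusted p = 0.846), and 0.60 with the slide as a block (SE 0.22, unadjusted p = 0.0244, adjusted p = 0.866). Avp, vasopressin, was at -0.43 in exercised WT against WT (SE 0.18, adjusted p = 0.176), and at -0.17 with the block. Sst, somatostatin, was 0.32 higher in KE than in KO (SE 0.13, adjusted p = 0.202), and 0.10 with the block.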

How the data were processed

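Hypothalamus RNA of 12 mice was labelled with Cy3 and measured on single-color Agilent mouse arrays, 1 array per mouse. The authors deposited the scanner output, in which each spot has an intensity from which Agilent Feature Extraction 10.7.1.1 had taken the background and spatial trends of that array. They also deposited a table with the intensity and with log2 values that were quantile-normalized over the arrays in GeneSpring. Other deposited tables hold the authors' own fold changes and unadjusted p-values, with 24 columns of values per sample, and were not used.

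From the scanner output, control and outlier spots were left out, replicate spots were averaged on the log2 scale and arrays were quantile-normalized. Before normalization, the averaged values lay within 0.01 of the log2 of the authors' unnormalized intensity for 56581 to 56605 of 56605 probes per array. After normalization, the correlation with the authors' log2 values over the tested probes rounded to 1 on every array. No spot was saturated (0 on every array), and between 61.6% and 67.9% of an array's spots passed the scanner software's background test. A limma 3.58.1 model of the 4 groups was fitted to all 12 arrays (R 4.3.3), and p-values were adjusted by Benjamini-Hochberg over 35230 probes. The slide, read from the scanner output, was the main alternative term. The number of arrays limits the precision. On simulated data for KE against exercised WT, 194 of 200 probes changed by 2 on the log2 scale, among 35201, had an adjusted p under 0.05. Smaller changes, such as those seen for the 9 genes, were not simulated. Figures were drawn with Python 3.11.15 and matplotlib 3.10.9.

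Named were the 9 genes by their brightest tested probe, the 3 genes most like each peptide gene, and from each list the 2 to 4 genes with the smallest p in a comparison. Other probes of the receptors were named after their values were seen. Genes and lists were chosen with earlier results of these data known. Of 131 list genes 130 had a probe and 122 were tested. Markers of thalamus, choroid plexus, anterior pituitary, neurons, astrocytes, oligodendrocytes, microglia and blood were also tabulated, and no tested gene of these lists had an adjusted p under 0.05 (0 in each comparison). Positions of probes come from the annotation in the authors' table of intensities and log2 values (mm9). The wild-type exercise group is called exercised WT. Groups and replicate numbers came from the sample labels.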

Additional observations from a re-analysis of the deposited data

How the results depend on the processing

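Counts here are of the 9 genes at an unadjusted p of at most 0.05. Without the slide term Cckbr was the 1 gene called between exercised WT and WT, KE and KO, and KE and WT, and a slide block brought each of these counts to 0, with Cckbr reversing to 0.12 for exercised WT against WT and to 0.029 for KE against WT. For exercised WT against WT the count was also 0 with 75th percentile scaling (beside 25.6% of all probes), with normexp background correction (28.6%) and without a detection filter (18.8%). The methods' t-test called 1 gene (Galr1) between KO and WT, beside 3.51% of all probes, and 0 between KE and KO, beside 12.7%. On the arrays of slide 1 alone, 1 gene (Cck) was called between KO and WT, beside 4.38% of all probes. On those of slide 2 alone KO had a single mouse, and Cckbr differed by -0.07 between KE and that mouse. Leaving out 1 array at a time gave 0 to 1 gene for KO against WT, 0 to 2 for KE against KO, 0 to 1 for exercised WT against WT, 0 for KE against exercised WT, 1 to 2 for KE against WT and 0 to 1 for the interaction. The share of all probes called moved too, from 10.9% (without KO 2) to 38.4% (without KO 3) for KE against KO, from 18.1% (without WT 1) to 34.1% (without KO 3) for exercised WT against WT, from 22.2% (without KE 1) to 37.6% (without KO 3) for KE against WT and from 4.59% (without WT 1) to 9.09% (without KO 1) for KO against WT. Without KE 2 and without KO 3 it was 4.48% and 10.3% for KE against exercised WT, and 5.43% and 10.9% for the interaction, the lowest and highest of each. For KE against KO the count was 0 without KO 1 (beside 11.8% of all probes), KO 2 (10.9%), KE 2 (14%) or KE 3 (15.8%). It was 2 without KO 3 (Cckbr and Ntsr2, beside 38.4%) or KE 1 (Cckbr and Galr1, beside 14.8%). For exercised WT against WT it was 0 without WT 1, WT 2, exercised WT 2 or 3, or KE 2 or 3, beside 18.1% (without WT 1) to 24.3% (without WT 2) of all probes. Without WT 3 Adcyap1 was the 1 gene called, beside 19.8%. For KE against WT it was 2 without WT 2 (Cckbr and Ntsr1, beside 27.8% of all probes) or WT 3 (Cckbr and Adcyap1, beside 23.7%). Without KO 2, Nts was called between KO and WT (beside 8.46%) and for the interaction (beside 7.66%). The replicate numbers were not taken to pair the mice. Of 18 same-numbered pairs, 4 had deviations from the group means correlated above 0.1 (-0.19 to 0.24). Pairs with different numbers were not compared, so this does not settle whether the numbers pair the mice. With the replicate block the counts were 0 for KO against WT (beside 6.25% of all probes), 1 for KE against KO (20.9%) and 1 for exercised WT against WT (25.8%). They were 0 for KE against exercised WT (7.1%), 1 for KE against WT (29.8%) and 0 for the interaction (8.68%), and all 6 counts were as without it. The other settings (the authors' table, detection in the groups compared or on all 12 arrays, a fit on the groups compared, outlier spots kept, probes averaged) kept each count within 1.5 times or are given above. Over all 15 probes, 128 of 1905 values not called in either setting changed sign. The cause of these changes was not tested. With 3 mice per group and slides shared by few groups, changes of the size seen for Cckbr cannot be told apart from the slide.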
